A study of Rattus norvegicus with 18 samples.

Results

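Kidney cortex of diabetic rats that had undergone Roux-en-Y gastric bypass (RYGB) held more transcript of the hormone gene Epo and of the red cell genes Alas2 and Lgals5 than kidney cortex of either other group. The transcripts of the cell's oxygen sensing machinery, Hif1a, Epas1, Egln1, Egln3 and Vhl, and of the blood vessel growth factor Vegfa lay in overlapping ranges. For Epas1 and for Vegfa the overlap was partial, with 5 RYGB libraries above every library of the other diabetic rats. The log2 difference between these groups was 0.47 ± 0.15 (SE) for Epas1, 0.30 ± 0.12 for Vegfa and 2.28 ± 0.79 for Alas2. Overlap of ranges does not show that a transcript was unchanged. These 9 genes were named as a set, and all 9 of 9 were found by symbol among the 18420 genes of the deposited table. The set was chosen by values measured in these same libraries, so the differences of its genes between groups are given as a description, with no test.

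Messenger RNA of the kidney cortex was profiled by RNA-seq in Zucker diabetic fatty (ZDF) rats, a strain whose fa allele disables the leptin receptor, so that rats with 2 copies become obese and diabetic. Healthy control rats were ZDF fa/+, lean and non-diabetic, and carried 1 copy of that allele. Disease rats were ZDF fa/fa and diabetic, labelled as the disease control. RYGB rats were also ZDF fa/fa and labelled diabetic, and had the bypass operation, which routes food around the larger part of the stomach and the first stretch of small bowel. There were 6 libraries per group, numbered as replicates 1 to 6. The labels give no age, sex or time since surgery, and name no operation for the disease group. RYGB against disease compares operated with other diabetic rats, while RYGB against healthy control differs in genotype, diabetes and surgery together.

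Erythropoietin is the hormone that keeps red cell precursors in the bone marrow alive and dividing. In the adult body most of it comes from fibroblast-like cells between the tubules of the kidney cortex, which switch the Epo gene on when oxygen falls. The switch is a hypoxia-inducible factor (HIF): the alpha subunits HIF-1α (Hif1a) and HIF-2α (Epas1) are hydroxylated in the presence of oxygen by prolyl hydroxylases (Egln1, Egln3), and the von Hippel-Lindau protein (Vhl) then marks them for destruction. This control acts mainly on the protein, so transcript levels of the HIF subunits do not measure HIF activity. Young red cells (reticulocytes) lose their nucleus but keep messenger RNA for a short time in the blood, and that RNA is rich in globin and Alas2.

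The promoter stretches below mark letter matches to short words that the transcription factors of these programmes can bind. GATA-1 drives red cell genes through a GATA word, and HIF binds a core inside its hypoxia response element. All are from RefSeq on the GRCr8 build, 90 bases each, written 5′ to 3′ on the gene's strand, and capitals mark the matched word. All 9 genes had a window of 250 bases before to 50 after an annotated start.
Alas2, chrX:22895269-22895358, plus strand: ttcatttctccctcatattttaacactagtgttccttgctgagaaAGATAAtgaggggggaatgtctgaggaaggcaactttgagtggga
Lgals5, chr10:64355210-64355299, minus strand: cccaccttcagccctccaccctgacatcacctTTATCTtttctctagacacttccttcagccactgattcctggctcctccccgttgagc
Lgals9, chr10:64428106-64428195, minus strand: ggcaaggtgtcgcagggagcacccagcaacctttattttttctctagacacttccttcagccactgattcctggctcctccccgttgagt
Hba-a2, chr10:15829259-15829348, minus strand: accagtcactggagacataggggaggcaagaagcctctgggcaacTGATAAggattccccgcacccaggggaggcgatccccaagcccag
Epo, chr12:24841195-24841284, plus strand: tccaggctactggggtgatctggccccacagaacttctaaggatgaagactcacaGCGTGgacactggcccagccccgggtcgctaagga
Hif1a, chr6:98359689-98359778, plus strand: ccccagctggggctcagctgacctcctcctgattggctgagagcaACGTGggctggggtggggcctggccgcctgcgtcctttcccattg
Egln1, chr19:69804693-69804782, minus strand: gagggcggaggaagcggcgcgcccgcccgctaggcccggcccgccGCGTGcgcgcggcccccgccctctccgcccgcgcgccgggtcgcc

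Words were searched on both strands. For GATA-1 the search took AGATAA, as in the Alas2 stretch, and also TGATAA, as in the Hba-a2 stretch. Forms of these words that end in a different base were included, namely AGATAG for the Alas2 form and likewise TGATAG for the Hba-a2 form. The HIF core was either ACGTG, as shown for Hif1a, or else GCGTG, as shown for Epo and Egln1. A GATA word was in the windows of 6 of the 9 genes (Epo, Alas2, Lgals5, Egln3, Vhl and Vegfa), against 30.3% of 33361 such windows in the genome. A HIF core was in 3 of the 9 (Epo, Hif1a and Egln1), against 41.7% of windows. The Lgals5 and Lgals9 windows were identical at 223 of 231 aligned bases (96.5%), yet the printed Lgals9 stretch held no GATA match. A match is a description of letters and not of a bound site. Whether the 2 transcripts are alike enough for reads to be split between them was not tested. Lgals9 itself had 216.4 ± 39.8 normalised reads in healthy control, 230.5 ± 46.1 in disease and 200.5 ± 24.7 in RYGB (mean ± SD, n = 6), and all its groups overlapped.

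Values below are normalised reads, which are reads of a gene divided by 1 size factor per library, and are compared within a gene only. Reads counted in genes ran from 8116638 to 42713246 per library. The kidney cortex markers Slc34a1, Slc5a2, Nphs1 and Umod had reads in all groups. Umod, made by the thick ascending limb, fell in disease to 0.43 times healthy control (limma adjusted p = 0.0129) and was 2.07 times disease in RYGB (adjusted p = 0.0294), and its part in the results below was not tested. Healthy control replicate 4, the library with the fewest reads, stood apart in red cell transcripts, with 368.0 normalised reads of the alpha globin transcript Hba.a2 against 3057 to 16307 in the other healthy control libraries. Values without it are given for Epo, Alas2, Lgals5, Alox15 and alpha globin.

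Epo, the hormone gene, was low in healthy control, where replicates 1 to 6 held 2.19, 8.40, 3.59, 0, 4.203 and 4.70 normalised reads. Disease libraries held 7.47, 3.92, 12.8, 9.84, 7.71 and 8.49, in the same order. RYGB libraries held 188.5, 94.6, 63.4, 58.7, 32.6 and 13.2. All 6 RYGB libraries lay above all 12 others, but RYGB replicate 6 only just cleared disease replicate 3, whereas RYGB replicate 1 stood far above every other library. Healthy control and disease overlapped, with 3 of 6 disease libraries above all of healthy control.

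The Epo mean was 3.85 ± 2.80 in healthy control, 8.37 ± 2.92 in disease and 75.2 ± 62.1 in RYGB, so that RYGB was 8.98 times disease. On the log2(value + 1) scale, RYGB exceeded disease by 2.66 ± 0.54 (SE) and healthy control by 3.83 ± 0.54, and disease exceeded healthy control by 1.16 ± 0.54. The RYGB against disease difference was 2.31 without RYGB replicate 1 and 3.06 without RYGB replicate 6. These values rest on few reads: 529 reads in all 18 libraries, 0 to 11 per healthy control library, 3 to 24 per disease library and 11 to 171 per RYGB library. The 0 in healthy control replicate 4 allows up to 7.36 normalised reads (3 reads, counting error only), which lies within the range of the other healthy control and disease libraries. Without that library disease exceeded healthy control by 0.76 ± 0.49 and RYGB exceeded it by 3.43 ± 0.49.

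Bulk RNA cannot tell more Epo-making cells from more Epo RNA per cell. The 12 listed markers of interstitial fibroblasts and pericytes, the cell class that makes Epo, went in both directions. Their summed level, to which abundant genes add most, was 9204 to 15045 in healthy control, 9938 to 11315 in disease and 8422 to 10077 in RYGB. Of the 11 tested, Pdgfra (a growth factor receptor) and Dcn (the matrix protein decorin) fell in RYGB against disease and against healthy control, Cxcl12 (a chemokine) fell against healthy control, and none was called higher. The pericyte marker Cspg4 had a mean of 458.2 in RYGB, 279.3 in disease and 276.9 in healthy control, with 5 of 6 RYGB libraries above all others (adjusted p = 0.0564 and 0.0647). Foxd1, a stromal transcription factor, was 1.45 and 1.47 times higher in RYGB (adjusted p = 0.330 and 0.329). The part of these cells in the Epo values was not tested.

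Alas2 encodes the red cell form of the first enzyme of haem synthesis. It had 282.6, 100.9, 136.5, 2.45, 241.2 and 47.0 normalised reads in healthy control, 206.8, 204.8, 58.0, 234.0, 151.1 and 32.2 in disease, and 705.5, 951.7, 413.1, 400.7, 371.4 and 933.0 in RYGB. Every RYGB library lay above the 12 others, whose 2 groups overlapped almost wholly. Means were 135.1 ± 109.2, 147.8 ± 84.4 and 629.2 ± 271.1, and RYGB was 4.26 times disease. The log2 difference of RYGB was 2.28 ± 0.79 from disease and 2.98 ± 0.79 from healthy control, the last being 2.10 ± 0.51 without healthy control replicate 4. Disease and healthy control differed by 0.71 ± 0.79, which turned to -0.18 ± 0.51 without that library.

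Lgals5 encodes galectin-5, a sugar-binding protein of rat reticulocytes and red cells. Its values were 57.0, 33.6, 38.9, 0, 69.8 and 15.3 in healthy control, 29.9, 49.97, 10.6, 50.6, 33.9 and 6.79 in disease, and 149.9, 210.2, 119.1, 96.8, 92.0 and 222.8 in RYGB. The order of libraries was close to that of Alas2: RYGB replicates 2 and 6 were the highest of all, and disease replicate 6 and healthy control replicate 4 the lowest of their groups. Means were 35.8 ± 25.8, 30.3 ± 18.7 and 148.4 ± 56.7, giving RYGB 4.90 times disease. RYGB exceeded disease by 2.48 ± 0.76 and healthy control by 2.73 ± 0.76 (1.85 ± 0.47 without healthy control replicate 4), while disease and healthy control differed by 0.25 ± 0.76, or by -0.64 ± 0.47 without that library.

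**Figure D1:**
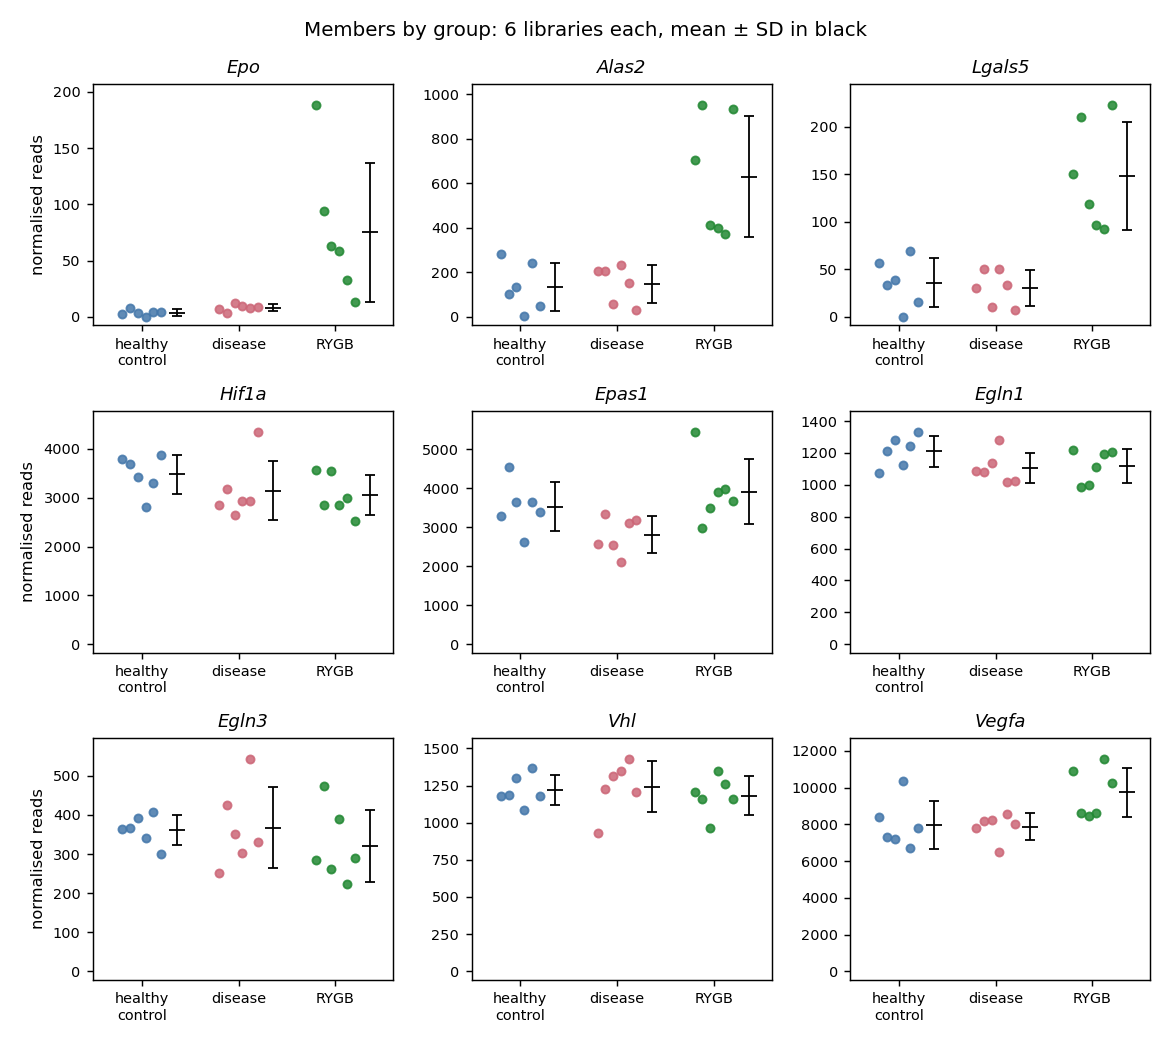
Normalised reads (y axis, linear, from 0) of the 9 genes in healthy control, disease and RYGB; each point is 1 of 6 libraries in replicate order and the black mark is the group mean ± SD. Epo, Alas2 and Lgals5 have every RYGB point above all 12 others, with Epo from 13.2 to 188.5 within RYGB, while the groups of the other 6 genes overlap.

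Of the 9 genes, 3 had all 6 RYGB libraries above all 6 disease libraries, as had 1.12% of all 13988 genes tested, and the same 3 lay above healthy control without overlap, as had 1.82% of all genes. The limma fit over all genes called 1 of the 9 higher in RYGB against disease (Epo) and 3 higher in RYGB against healthy control (Epo, Alas2 and Lgals5), beside 1.84% and 2.46% of all genes. The genes were picked for these contrasts, so nothing is read from the counts. RYGB libraries serve in both comparisons, which are thus not independent. The 9 genes had a median log2 difference of 0.30 between RYGB and disease, beside -0.0009 over all genes, and of 0.15 between RYGB and healthy control, beside -0.013.

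Hif1a, the alpha subunit present in most cell types, had 2806 to 3879 normalised reads in healthy control (median 3558), 2647 to 4347 in disease (median 2932) and 2525 to 3568 in RYGB (median 2925). The order was healthy control, disease, RYGB, and neighbours did not differ beyond their spread: on the log2 scale disease minus healthy control was -0.16 ± 0.12, RYGB minus disease -0.03 ± 0.12 and RYGB minus healthy control -0.19 ± 0.12. Disease replicate 6 was the highest library of all at 4347, and without it the RYGB against disease difference was 0.06.

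Epas1, the alpha subunit that drives Epo in kidney, was the one HIF subunit of the set with its lowest mean in disease. Its values were 3283, 4540.3, 3639, 2613, 3660 and 3391 in healthy control, 2576, 3348, 2533, 2110.2, 3111 and 3196 in disease, and 5445, 2984, 3494, 3910, 3994 and 3670 in RYGB. All but 1 of the RYGB libraries lay above every disease library, and RYGB replicate 1, the highest in Epo, was also the highest in Epas1. Means were 3521 ± 628, 2812 ± 480 and 3916 ± 831. On the log2 scale disease minus healthy control was -0.32 ± 0.15 (SE 0.096 with same-numbered libraries as pairs), and disease was the lower in 6 of 6 such pairs. The labels name no such pairs, and the pairing was taken from correlations in these data, so it is uncertain. Taken without pairs, 3 of 6 disease libraries lay below all of healthy control. RYGB lay 0.47 ± 0.15 above disease and 0.15 ± 0.15 above healthy control.

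Egln1, the prolyl hydroxylase that sets HIF levels in most tissues at normal oxygen, differed little, with means of 1211 ± 96.7, 1105 ± 95.8 and 1117 ± 105. Its log2 differences were -0.13 (disease minus healthy control), 0.01 (RYGB minus disease) and -0.12 (RYGB minus healthy control), each ± 0.09. Egln3, a hydroxylase that HIF itself induces, had 361.5 ± 38.2, 367.4 ± 103 and 320.5 ± 92.9, with differences, in that order, of -0.01, -0.20 and -0.21 (each ± 0.18). Its disease libraries ran from 251.6 to 542.6 and enclosed all of healthy control. Vhl, the recognition subunit of the ligase that destroys hydroxylated HIF, had 1218, 1242 and 1183, with differences of 0.02, -0.07 and -0.05 (each ± 0.11). In none of these 3 genes did neighbouring groups differ beyond their spread.

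Vegfa encodes the main growth factor of blood vessels and is a HIF target that podocytes and tubules also make constantly. Healthy control libraries held 6739 to 10391 normalised reads, disease libraries 6484 to 8542 and RYGB libraries 8472 to 11553. RYGB replicate 3, the lowest of its group, lay just under the highest disease library, and the other 5 RYGB libraries lay above all of disease. Means were 7984 ± 1310, 7885 ± 730.0 and 9743 ± 1345, so RYGB lay 0.30 ± 0.12 above disease and 0.29 ± 0.12 above healthy control, while disease and healthy control differed by -0.01 ± 0.12.

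**Figure D2:**
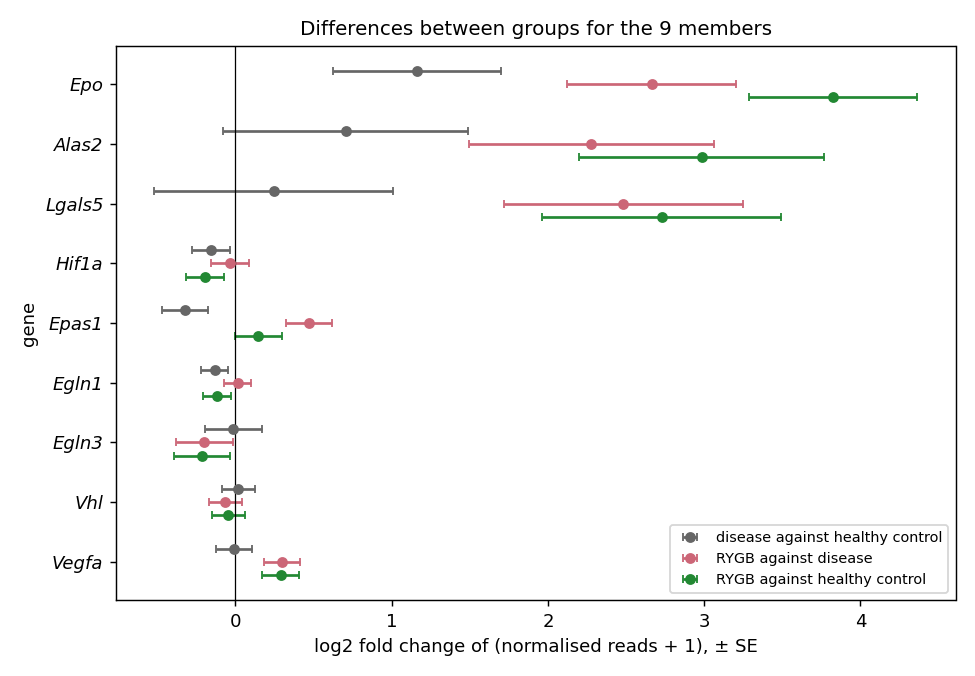
Log2 fold change of (normalised reads + 1) with its SE (x axis) for each of the 9 genes (y axis) in the 3 comparisons, from one limma fit over 18 libraries. The RYGB values of Epo, Alas2 and Lgals5 lie between 2.28 and 3.83, with SEs of 0.54 to 0.79, and those of the other 6 genes between -0.21 and 0.47.

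Alas2 correlated with Lgals5 and with alpha globin from library to library within each group. Alas2 and Lgals5 correlated at Pearson's r = 0.994 in healthy control, 0.973 in disease and 0.976 in RYGB (exact permutation p = 0.0028, 0.0097 and 0.0028, Benjamini-Hochberg adjusted over 33 relations 0.0275, 0.0357 and 0.0275). Spearman's rho was 0.943, 0.829 and 0.943, with adjusted exact p = 0.11, 0.214 and 0.11. Without the 2 libraries farthest from the median of Alas2, r was 0.924, 0.526 and 0.919. So few libraries over a narrower range cannot show a relation or its absence, and the disease relation is uncertain. Alas2 and Hba.a2 correlated at 0.997, 0.976 and 0.963 (adjusted exact p = 0.0275, 0.0327 and 0.0275; rho 1.0, 0.829 and 0.943 with adjusted p = 0.0917, 0.214 and 0.11; r without the 2 farthest 0.968, 0.906 and 0.867). Lgals5 and Hba.a2 correlated at 0.987, 0.947 and 0.990 (adjusted exact p = 0.0275, 0.0825 and 0.0306; rho 0.943, 0.6 and 0.886 with adjusted p = 0.11, 0.654 and 0.183). Without the 2 farthest libraries r was 0.883, 0.318 and 0.986. In disease this relation missed the threshold with all libraries and is uncertain.

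No relation of Epo with Alas2 passed the threshold. Its r was 0.717 in healthy control, -0.44 in disease and 0.0034 in RYGB (adjusted exact permutation p = 0.327, 0.655 and 0.992; rho -0.029, -0.26 and 0.314, adjusted p = 1.0, 0.945 and 0.930). Without the 2 libraries farthest from the Epo median r was -0.68, 0.034 and 0.803. In RYGB the r of Epo with Lgals5 went from -0.10 to 0.851, so the low values there changed with the libraries kept. The r values of the remaining libraries carry no p, and so few libraries cannot show a relation. RYGB replicate 6 was the lowest RYGB library in Epo at 13.2 and the highest in Lgals5 at 222.8. Among the oxygen sensing genes, 1 of 18 within-group relations with Epo had an adjusted p below 0.05, that with Epas1 in healthy control (r = 0.944, adjusted exact p = 0.0357; rho 0.829, adjusted p = 0.214). It was 0.537 without the 2 farthest libraries and is thus uncertain. The r of Epo with Epas1 was -0.64 in disease and 0.363 in RYGB (adjusted exact p = 0.327 and 0.702).

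The genes most like each member were ranked by Pearson's r over the 18 libraries after the group means were taken out, as a description in libraries that share depth and preparation. For Alas2 they were Lgals5 (0.989), Hba.a2.1 (0.988) and Hba.a2 (0.984), and for Lgals5 they were Alas2 (0.989), Hba.a2.1 (0.983) and Hba.a2 (0.970). For Epo they were Ccnd1 (0.846), Grpr (0.806) and Sypl1 (0.759), and with the group means left in they were Alox15 (0.877), Hk3 (0.857) and Ciita (0.808). The first gene was Fcho2 for Hif1a (0.964), Mmgt1 for Epas1 (0.924), Mdh1 for Egln1 (0.934), Tff3 for Egln3 (0.915), Glis2 for Vhl (0.862) and Ogt for Vegfa (0.788).

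**Figure D3:**
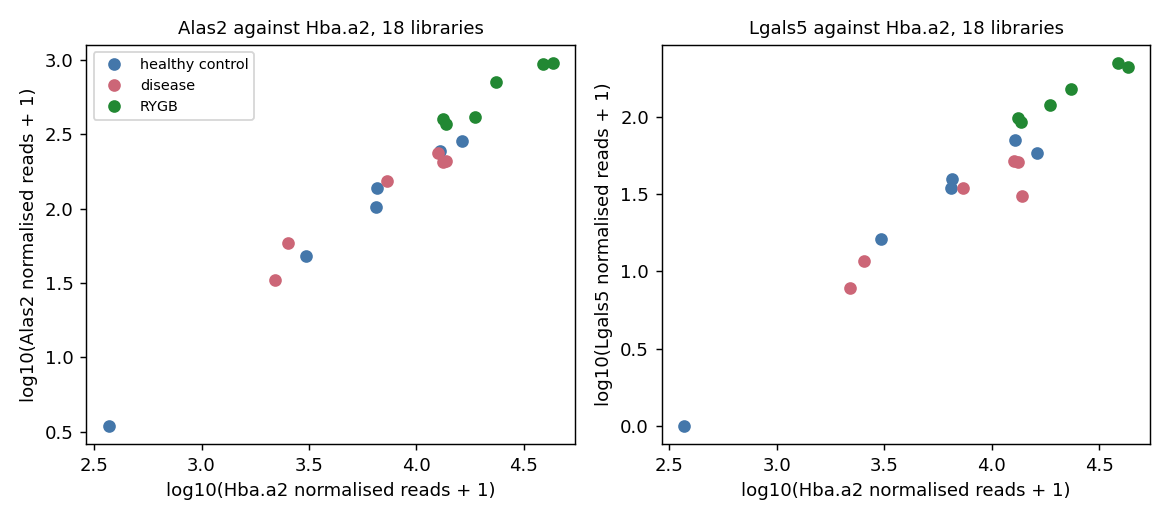
Alas2 (left) and Lgals5 (right) against the alpha globin transcript Hba.a2, each as log10(normalised reads + 1), in 18 libraries coloured by group. The points follow 1 band in both panels, with healthy control replicate 4 alone at the lower left (368.0 Hba.a2 reads) and RYGB at the upper right.

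Alpha globin itself had 368.0 to 16307 normalised reads in healthy control, 2201 to 13790.2 in disease and 13265 to 43297 in RYGB, and the groups overlapped. On the log2 scale RYGB lay 1.75 ± 0.71 above disease and 2.29 ± 0.71 above healthy control, and limma called neither (adjusted p = 0.168 and 0.0647). Without healthy control replicate 4, which widens the common spread, RYGB against disease was called (1.75 ± 0.50, adjusted p = 0.0469) and RYGB against healthy control was not (1.55 ± 0.52, adjusted p = 0.0619). Reads that fit several globin copies were not counted to a gene, so these values are uncertain. How much blood each section held was not measured apart from such transcripts, and its part in the Alas2 and Lgals5 values was not tested.

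Set against alpha globin of the same library, Alas2 amounted to 0.667 to 2.08% of the Hba.a2 reads in healthy control, 1.47 to 2.29% in disease and 2.20 to 3.02% in RYGB. Mean shares were 1.58 ± 0.49, 1.78 ± 0.34 and 2.59 ± 0.38% (SD, n = 6), so the RYGB share was higher on average but overlapped disease. Lgals5 amounted to 0 to 0.592%, 0.217 to 0.462% and 0.485 to 0.729%, where RYGB lay above disease without overlap and overlapped healthy control. These shares are ratios of reads, not per length, and are given as values without a test.

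**Figure D4:**
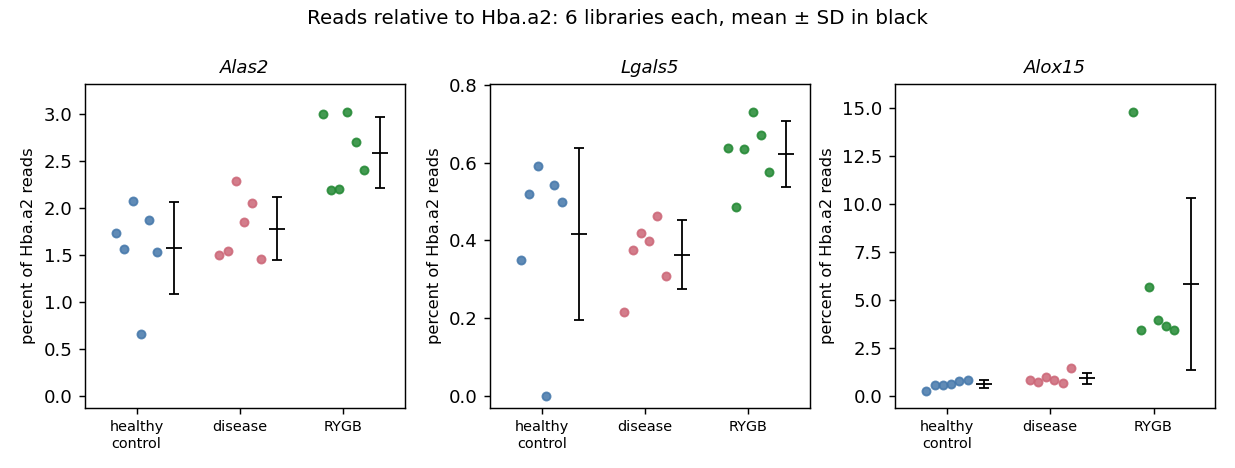
Reads of Alas2, Lgals5 and Alox15 as a percentage of Hba.a2 reads in the same library (y axis, linear, from 0), by group; points are 6 libraries in replicate order and the black mark is the mean ± SD. Alas2 and Lgals5 shares in RYGB reach 3.02% and 0.729%, while the Alox15 share lies between 3.46 and 14.8% in RYGB and at or below 1.47% in the other groups.

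Beyond the 9 genes, 7 lists of related genes were tested in the fit over all genes. Of 131 tested list genes of 157 listed, 12 rose and 0 fell in RYGB against disease, where 1.84% of all genes were called higher and 2.1% lower. In RYGB against healthy control 11 rose and 0 fell, where the shares of all genes were 2.46% higher and 1.98% lower. In disease against healthy control limma called 0 of 131 (22 had an unadjusted p below 0.05, edgeR called 0 and DESeq2 2), beside 0.579% of all genes called higher and 1.03% lower. The list genes had a median log2 difference of 0.096 between RYGB and disease and 0.085 between RYGB and healthy control. Of the 131 genes, 10 reached the test's minimum of 10 normalised reads in 6 libraries only with RYGB libraries counted. The lists were also chosen with earlier results of these data known. For both reasons the list counts and medians are no support for a difference. Leaving out 1 library changed these counts: RYGB against disease gave 7 without RYGB replicate 1 or 4. RYGB against healthy control gave 22 (15 higher, 7 lower) without healthy control replicate 4 and 20 without disease replicate 6, 7 without healthy control replicate 2, 3 or 6, 6 without RYGB replicate 2, 4 or 5, 5 without RYGB replicate 1 and 4 without RYGB replicate 6. Quantile normalization gave 13 higher and 3 lower for RYGB against healthy control.

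Among red cell and erythroid genes, 4 of 27 tested rose in RYGB against disease and 6 of 27 rose against healthy control, and 0 fell. Shares of all genes called higher were 1.84% and 2.46% in these comparisons. Alox15, a lipoxygenase of reticulocytes that macrophages and other cells also make, rose from 72.8 ± 41.3 in disease and 42.7 ± 34.2 in healthy control to 1403 ± 1099 (limma log2 4.16, adjusted p = 0.000988, and 5.23, adjusted p = 0.000278, each ± 0.64). Without healthy control replicate 4 the difference from healthy control was 4.61 ± 0.49 (adjusted p = 1.68e-05). Alox15 was listed with earlier results of these data known, so its p-values are no support for a difference. Its RYGB libraries held 3483, 1497, 1072, 526.4, 499.5 and 1343, the lowest of them above the 119.6 of the highest disease library. Ahsp, the chaperone of free alpha globin, rose from 6.42 ± 3.62 in disease to 26.9 ± 11.9 (1.94, adjusted p = 0.00624). Tmod1, which caps actin in the red cell skeleton and is also made in other tissues, rose from 73.3 ± 10.9 in disease to 163.6 ± 18.8 (1.15, adjusted p = 0.000899). Healthy control held 110.3 ± 28.4 of Tmod1.

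Sptb, the beta spectrin of the red cell skeleton, was 523.0 ± 91.2 in healthy control, 628.5 ± 79.1 in disease and 922.0 ± 101 in RYGB, with all 6 RYGB libraries above the 12 others (limma adjusted p = 0.0123 against disease and 0.000716 against healthy control). The blood group gene Rhd rose against healthy control from 2.89 ± 3.02 to 21.4 ± 8.17 (2.80, adjusted p = 0.00899). Kel, another blood group gene (2.49, adjusted p = 0.0115), the erythroid nuclear protein gene Hemgn (2.55, 0.0291) and Ahsp (1.63, 0.0214) made up the rest of the 6 against healthy control. Kel and Hemgn lie outside the naming rule and were picked after their values were seen. Gata1, the master factor of red cell precursors, had 2 reads in all 18 libraries. Of the 27 tested genes 9 reached the minimum of 10 normalised reads in 6 libraries only with RYGB libraries counted, Ahsp, Rhd, Kel and Hemgn among them, and Rhd through its 6 RYGB libraries alone. Such genes enter the test because they are high in RYGB, so their own p-values are no support for a difference. The list's counts and its medians of 0.56 and 0.60 are no support either. Several of its genes are also made by kidney cells, among them Slc4a1, the anion exchanger of intercalated cells.

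Some platelet transcripts rose as well. Of 5 tested of 8 platelet and megakaryocyte markers, Pf4 (platelet factor 4) and Itga2b (integrin αIIb) were called higher in both RYGB comparisons. Of all genes, 1.84% were called higher against disease and 2.46% against healthy control. Gp9 and Gp1bb were higher but not called, and Treml1 was lower in RYGB (0.85 times disease and 0.70 times healthy control, not called). Itga2b added most to the summed level of the 8. That level was 387.8 to 728.6 in healthy control, 378.5 to 642.1 in disease and 608.7 to 904.3 in RYGB, with Ppbp at 0 in all disease libraries. Neutrophil markers (6 found of 9) summed to 17.2 to 70.1, 86.6 to 404.7 and 43.7 to 210.3, with Camp at 0 in all healthy control libraries. Of 3 tested, S100a8 and S100a9 were called higher in disease against healthy control (limma adjusted p = 0.00446 and 0.00533), beside 0.579% of all genes. S100a8 was also called higher in RYGB against healthy control (limma adjusted p = 0.0215). Csf3r was not called in any comparison, and RYGB against disease gave no call. T and B lymphocyte markers (7 found of 8) summed to 36.8 to 90.9, 62.3 to 148.0 and 38.9 to 63.1. The part of blood cells other than red cells in the results was not tested.

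Among iron supply genes 2 of 12 tested rose in each RYGB comparison and 0 fell, with list medians of 0.12 and 0.17. Shares of all genes called higher were 1.84% against disease and 2.46% against healthy control. Tfrc, the transferrin receptor by which cells take up iron, had 6485, 4940.2, 6122, 5580, 5696 and 5530 normalised reads in RYGB, against 1157 to 3227 in disease and 1563 to 3110.2 in healthy control. RYGB overlapped neither other group, while disease and healthy control overlapped (limma log2 1.68 ± 0.21, adjusted p = 0.000334, and 1.46 ± 0.21, adjusted p = 0.000768). Tfrc too was listed with earlier results of these data known, so these p-values are no support for a difference. Slc11a2, an iron transporter, rose against disease from 2913 ± 515 to 4542 ± 845 (0.64, adjusted p = 0.0269), where healthy control held 3832 ± 814. Aco1, an aconitase that doubles as an iron-responsive RNA-binding protein, rose against healthy control from 10777 ± 3301 to 18196 ± 2815 (0.79, adjusted p = 0.0353). The Slc11a2 call ended in 7 of 28 alternative settings and the Aco1 call in 10 of 28.

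Of the other oxygen sensing components, 1 of 14 tested rose in each RYGB comparison and 0 fell. Over all genes, 1.84% were called higher against disease and 2.46% against healthy control. Hif3a, a further alpha subunit with forms that counter HIF-1, had 51.8, 39.0, 9.84, 52.6, 19.8 and 44.3 in RYGB, 1.70 to 20.04 in disease and 0 to 12.3 in healthy control (limma log2 2.64, adjusted p = 0.0163, and 2.54, adjusted p = 0.0223, each ± 0.59). RYGB replicate 3 lay within both other ranges and RYGB replicate 5 within that of disease, and the call against healthy control ended without healthy control replicate 1 or RYGB replicate 1, 4 or 6. Hif3a too reached the minimum only with RYGB libraries counted, so its p-values are no support for a difference. The list median was 0.055 and 0.096.

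HIF target genes had a median log2 difference of -0.0037 between RYGB and disease and of -0.044 between RYGB and healthy control, and 17 and 14 of 34 tested genes were positive. In RYGB against disease, where 1.84% of all genes were called higher, 3 of 34 rose. They were Mxi1, a MYC antagonist (0.50, adjusted p = 0.0103), Bhlhe40, a transcriptional repressor (0.74, adjusted p = 0.0361), and Slc2a1, the glucose carrier GLUT1 (0.69, adjusted p = 0.0424). Means in healthy control, disease and RYGB were 3429, 2757 and 3896 for Mxi1 and 2788, 1853 and 3025 for Bhlhe40. Those of Slc2a1 were 907.0, 733.5 and 1159. Against healthy control, where 2.46% of all genes were called higher, 2 of 34 rose. These were the glycolytic genes Ldha (limma 0.35, adjusted p = 0.0357) and Pfkl (0.39, adjusted p = 0.0400). Apart from Mxi1, each of these calls ended in 9 or more of 28 alternative settings.

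Erythropoietin signalling genes showed 2 of 16 tested higher in RYGB against disease, both encoding the factors that carry the receptor's signal to the nucleus. Over all genes, 1.84% were called higher in that comparison. Stat5a rose from 168.1 ± 54.5 to 317.7 ± 85.2 (limma 0.95, adjusted p = 0.0281) and Stat5b from 463.7 ± 43.9 to 612.2 ± 79.3 (0.40, adjusted p = 0.0499). Healthy control held 242.9 ± 41.7 of Stat5a and 566.6 ± 82.3 of Stat5b. The Stat5b call ended in 19 of 28 alternative settings and the Stat5a call in 5, and reads may be split between these close copies. Against healthy control limma called 0 of 16 (2 with an unadjusted p below 0.05, edgeR 0, DESeq2 0). The receptor gene Epor had 8.34 in healthy control, 12.1 in disease and 9.70 in RYGB.

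In the remaining haem synthesis genes and the angiogenic genes, calls depended on the tool. Limma called 0 of 13 haem synthesis genes in RYGB against disease (1 with an unadjusted p below 0.05, edgeR 0, DESeq2 0) and 0 of 13 against healthy control (3 unadjusted, edgeR 0, DESeq2 1). Alad, the second enzyme of the pathway, had 1906 ± 437, 2479 ± 1122 and 2706 ± 466, and the mitochondrial porphyrin carrier Tmem14c 2086 ± 189, 2099 ± 242 and 2308 ± 181. For angiogenic ligands and receptors limma called 0 of 15 in either RYGB comparison (2 and 6 unadjusted, edgeR 0 and 1, DESeq2 1 and 2). The VEGF receptor Kdr had 4810.3 ± 1104, 4141 ± 793 and 3994 ± 377, and the angiopoietin receptor Tek 2250 ± 391, 1971 ± 303 and 1915 ± 217.

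**Figure D5:**
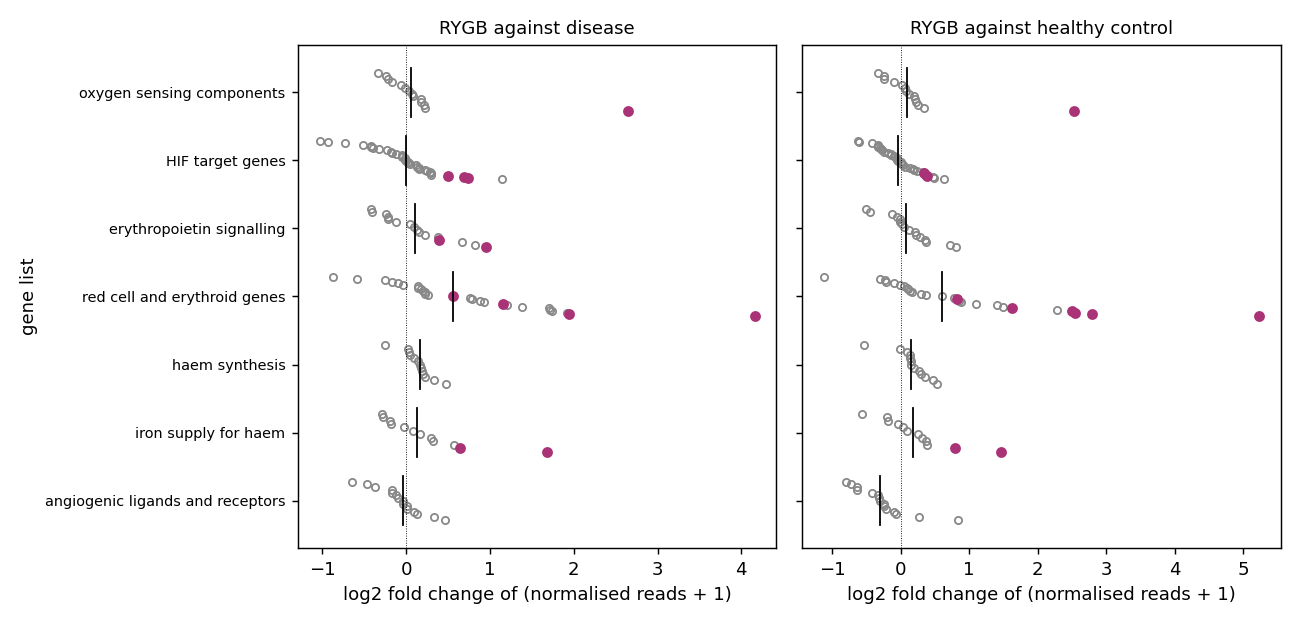
Log2 fold change of (normalised reads + 1) (x axis) of each tested gene of the 7 lists (y axis), for RYGB against disease (left) and RYGB against healthy control (right); filled points were called by limma, open points were not, and black bars are list medians. The called genes, 12 on the left and 11 on the right, all lie to the right of 0, and the medians of the red cell list are 0.56 and 0.60.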

How the data were processed

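The deposited signal per gene is a read count over a library's size factor, a division the authors had made. The submitters' processing notes list HTSeq 0.6.1p1, DESeq2, FastQC 0.11.2 and MultiQC 0.9, with build Rnor 5.0. For aligner, annotation and DESeq2 version: not given in the sources used here. Per the labels' protocols, libraries of polyadenylated RNA were made with a stranded kit. All values were whole multiples of a library's step, so whole reads were recovered (100% within 0.01 reads). Of 18423 rows 3 name no gene (reads outside genes, 27.62 to 43.17% of a library's counted reads, not unique, 13.46 to 18.13%, and ambiguous) and were left out. Symbols are written with a point for a hyphen (Hba.a2). Promoters come from RefSeq on GRCr8, a build other than the authors'.

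Groups were taken from the sample titles. The labels do not state that each library is a separate animal, so the spread that p-values measure is that of these libraries and may be technical. All pairs of libraries within a group differed by more than sampling noise (chi-square at least 22.53 per degree of freedom).

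The limma-trend method (limma 3.58.1, R 4.3.3) was applied to log2(value + 1) of 13988 genes that reached 10 in 6 or more libraries, in one fit of 3 group means over 18 libraries. All 9 members passed this filter, Epo through 7 libraries, 6 of them RYGB. P-values were two-sided and Benjamini-Hochberg adjusted within each comparison; calls required an adjusted p under 0.05. A log2 difference with a pseudocount of 1 understates the change of low genes. The code was tested on simulated data. Alternatives included edgeR 4.0.16 and DESeq2 1.42.0 on the recovered reads, other pseudocounts, filters and normalizations, and leaving out each library.

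The members and the gene lists were chosen with earlier results of these data known, Tfrc and Alox15 among them. The rule for named genes gave all members, up to 3 called genes by adjusted p per list and comparison, the 2 highest genes of a list without a call, alpha globin and the 3 genes most like each member. Replicate numbers recur in each group. Deviations of same-numbered libraries correlated at 0.131 to 0.325 between healthy control and disease, where all 6 pairs exceeded 0.1 and the numbers were taken as pairs on this evidence from the data, at -0.31 to 0.0141 between healthy control and RYGB, and at -0.557 to 0.309 between disease and RYGB, where they were not.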

Additional observations from a re-analysis of the deposited data

Results flagged for a closer look

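In 90 groups of 6 libraries (30 genes in 3 groups) 5 held a library beyond the critical value of Dixon's test, which chance passes in about 1 of 20 groups. Hif1a was 4347 in disease replicate 6, against 2647 to 3181 in the other disease libraries. Vegfa was 6484 in disease replicate 4, against 7788 to 8542. Alox15 was 3483 in RYGB replicate 1, against 499.5 to 1497, and Hif3a was 20.04 in disease replicate 5, against 1.70 to 4.26. Pfkl was 2397 in healthy control replicate 4, against 1514 to 1804.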

How the results depend on the processing

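Among listed genes in disease against healthy control, limma's 0 calls became 2 with DESeq2 and 0 to 1 when 1 library was left out. RYGB against disease had 12 listed genes called, and 7 to 16 when 1 library was left out. RYGB against healthy control had 11, which became 6 at a minimum value of 50, 20 (14 higher, 6 lower) with the compared groups fitted alone, 19 (15 higher, 4 lower) with DESeq2 and 4 to 22 when 1 library was left out. All 19 tests of named list genes kept their direction in all alternatives run. All 19 stayed called by edgeR, DESeq2, TMM factors and a pseudocount of 0.5, while 1 call ended with a pseudocount of 8 and with no filter, 3 with the compared groups alone, 3 after quantile normalization, 1 of 15 at a minimum of 50 and 9 of 18 without RYGB replicate 1 or 4. Over all genes the calls in disease against healthy control went from 225 to 410 with DESeq2 and 143 at a minimum of 50, those in RYGB against disease from 552 to 1098 with DESeq2, and those in RYGB against healthy control from 621 to 1602 with DESeq2 and 1421 with the compared groups alone. Leaving out 1 library gave 124 to 310, 259 to 817 and 203 to 1501 calls over all genes. By list, with all libraries kept, calls in RYGB against disease and against healthy control were 3 to 8 and 2 to 10 for red cell genes (main 4 and 6), 1 to 4 and 1 to 3 for HIF targets (3 and 2), 0 to 3 and 0 for erythropoietin signalling (2 and 0), 1 to 3 and 2 to 3 for iron supply (2 and 2), 0 to 1 and 0 to 2 for oxygen sensing (1 and 1), 0 and 0 to 1 for haem synthesis (0 and 0) and 0 to 1 and 0 to 2 for angiogenic genes (0 and 0). Leaving out 1 library gave 4 to 7 and 3 to 12 for red cell genes, 1 to 4 and 0 to 5 for HIF targets, 0 to 3 and 0 for erythropoietin signalling, 1 to 2 and 1 to 4 for iron supply, 1 to 2 and 0 to 1 for oxygen sensing, 0 and 0 to 1 for haem synthesis and 0 to 1 and 0 to 3 for angiogenic genes. Among members, Epo in RYGB against healthy control was 2.51 with a pseudocount of 8. Depth limits the genes with few reads in all 18 libraries, among them Epo (529), Hif3a (294), Ahsp (249), Hemgn (238), Kel (232) and Rhd (186).

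With a replicate block on all 18 libraries, listed genes called were 0 in disease against healthy control, 8 in RYGB against disease and 11 in RYGB against healthy control, and 5 of the 19 named calls ended. With a replicate block for healthy control and disease alone, the only groups whose numbers were taken as pairs, 2 listed genes were called (1 higher, 1 lower). That block was added after the data were seen, and the labels name no pairs. In only 2 of 6 pairs of healthy control and disease did a library correlate best with its own number. Healthy control replicate 5 and disease replicate 3 correlated at 0.389, above every same-numbered pair, so the pairing is uncertain.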

Other observations

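Another alpha globin gene in the table, Hba.a3, differed less between groups than Hba.a2, although within a group libraries high in one were mostly high in the other. It had 234.8 ± 179 normalised reads in healthy control, 289.8 ± 185 in disease and 291.1 ± 164 in RYGB, while Hba.a2 had 7602 ± 5976, 8634 ± 5378 and 25223 ± 12875. As a share of Hba.a2 reads, Hba.a3 was 2.54 to 6.67% in healthy control (at most 3.48% without replicate 4, which held 10 reads of Hba.a3 and 150 of Hba.a2), 2.62 to 3.83% in disease and 0.854 to 1.36% in RYGB, so that RYGB lay below both other groups without overlap. The row Hba.a2.1 kept its share at 30.7 to 41.6%, 29.6 to 46.2% and 33.3 to 39.0%. These shares were looked at after the values were seen, and reads that fit several globin copies were not counted to a gene.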
